A study of Mus musculus with 9 samples.

Results

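The PYHIN genes Aim2, Pydc3, Pydc4, Ifi203, Ifi204, Mndal and Pyhin1 were examined in RNA sequencing of sorted mouse splenic B cells. These 7 of the 24346 genes in the files were chosen by gene symbol from a list drawn up with their FPKM in these libraries already known, and the list does not say which comparison it used. The differences between groups in these 7 genes are therefore given as a description with no test. Follicular (FO) B cells came from young (8-week-old) and aged (50-week-old) wild-type mice of the strain labelled C57BL6, and age-associated B cells (ABCs) came from aged mice of the same age and strain. Each group had 3 libraries, and no group carried a transgene or received a treatment. The surface markers used to sort FO B cells included B220hi CD43- CD23+ CD21lo, and ABCs were sorted as B220hi CD43- CD23- CD21lo cells positive for CD11b and CD11c. The labels do not tie a library to a single animal.

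PYHIN proteins, also called HIN-200 proteins, combine a pyrin domain for contacts with other proteins and a HIN domain that binds DNA, although some members carry only one of these domains. Aim2, the best known member, binds DNA in the cytosol and recruits the adaptor ASC (gene Pycard) and caspase-1 into an inflammasome, which releases mature interleukin-1 family cytokines. Several other members are induced by interferon, and proteins of the Ifi203 and Ifi204 kind lie largely in the nucleus and have been linked to transcription and to interferon responses to DNA.

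The cells bore the transcripts of their sort. Fcer2a, which encodes CD23, was at 984 ± 46.2 FPKM (fragments scaled by transcript length and by the mapped total of the library; SD, n = 3) in young FO B cells, 714 ± 15.7 in aged FO B cells and 3.86 ± 3.25 in ABCs. Itgax, which encodes CD11c, was at 50.7 ± 7.90 FPKM in ABCs and below 0.21 FPKM in every FO library, and all 8 genes of a B lineage list averaged at least 1 FPKM in every group. Relative depths recovered from low values gave about 7490000 to 9100000 mapped reads per library. Fewer cells of a type and less RNA per cell cannot be told apart in such bulk libraries. Among aged FO libraries, replicate 3 stood closer to young FO libraries in interferon-stimulated genes than the other 2. Differences of aged and young FO B cells in Pydc3 and Pydc4 are given with and without it. So is the count of interferon-stimulated genes called between these groups.

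All 7 genes lie on chromosome 1, in an interval of 591794 bases from 173350879 to 173942672 (GENCODE M21, GRCm38, the assembly that mm10 names). Aim2 comes first, at chr1:173350879-173466040 on the plus strand. It is followed by Pydc4 at chr1:173566283-173599274 on the minus strand, Pyhin1 at chr1:173630917-173647928 on the plus strand and Pydc3 at chr1:173673675-173698395 on the plus strand. Ifi204 at chr1:173747293-173766943, Mndal at chr1:173849126-173942491 and Ifi203 at chr1:173920407-173942672 follow, all on the minus strand. All are annotated as protein-coding, and the reference names Pydc3, Pydc4 and Pyhin1 as Ifi208, Ifi213 and Ifi209. The annotated span of Mndal overlaps Ifi203 and the further family gene Mnda (Ifi211), and Aim2 overlaps Cadm3 on the opposite strand, so that reads in the overlaps could be assigned to either gene. Strand use in the authors' counting is not given in the sources used here.

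The 250 bases before the start sites of Pydc3 and Pydc4 are shown because these genes differed most between the groups and moved together (values below). The sequences are from RefSeq (GRCm38.p6), on the strand of the gene, 5′ to 3′. Capitals mark a match to the core of the interferon-stimulated response element, spelled GAAANNGAAA and searched on both strands. Over the 235 columns that align, the sequences of Pydc3 and Pydc4 have 233 identical bases (99.1%).
Pydc3, chr1:173673415-173673664, plus strand: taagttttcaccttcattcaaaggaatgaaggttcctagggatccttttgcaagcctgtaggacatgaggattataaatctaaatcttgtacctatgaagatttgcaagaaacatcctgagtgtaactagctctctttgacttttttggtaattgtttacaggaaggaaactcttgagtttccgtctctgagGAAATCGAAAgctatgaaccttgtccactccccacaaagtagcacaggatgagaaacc
Pydc4, chr1:173599273-173599522, minus strand: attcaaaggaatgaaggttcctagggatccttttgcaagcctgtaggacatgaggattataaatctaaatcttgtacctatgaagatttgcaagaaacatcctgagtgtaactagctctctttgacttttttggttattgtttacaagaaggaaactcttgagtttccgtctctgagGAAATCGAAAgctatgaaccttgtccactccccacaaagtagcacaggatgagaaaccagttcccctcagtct

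The match begins 58 bases before the start of Pydc3 and 73 bases before that of Pydc4. Ifi203 and Mndal each have 2 RefSeq start sites. A match lies 36 bases before the first start of Mndal and 35 bases before the second of Ifi203, whereas the window of the first start of Ifi203 holds none. The second window of Mndal also holds a match, on the opposite strand. For Pyhin1 no match was present, and the nearest stretch, beginning 79 bases before its start, differs from the core at 1 base. No match was present in the window of Aim2. The following stretches of 30 bases place that core in the members beside Mnda, a family gene outside the 7, and the capitals in the line for Pyhin1 mark its nearest stretch.
Pydc3, chr1:173673597-173673626, plus strand: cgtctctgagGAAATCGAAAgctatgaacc
Pydc4, chr1:173599326-173599355, minus strand: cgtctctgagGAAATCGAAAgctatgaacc
Ifi203, chr1:173942508-173942537, minus strand: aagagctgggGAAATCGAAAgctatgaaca
Mndal, chr1:173880204-173880233, minus strand: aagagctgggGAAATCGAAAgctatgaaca
Pyhin1, chr1:173630770-173630799, plus strand: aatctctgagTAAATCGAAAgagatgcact
Mnda, chr1:173913064-173913093, minus strand: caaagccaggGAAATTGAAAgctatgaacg

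In GENCODE M21 the stretches of Pydc3, Pydc4 and Pyhin1 lie outside any gene, that of Ifi203 in an intron of a longer Ifi203 transcript, that of Mndal in an exon of a longer Mndal transcript, and that of Mnda in an intron of Mndal. Of 32851 RefSeq windows, each of 250 bases before and 50 after a start, 3.44% held the core. The motifs of the gamma-activated site (TTCNNNGAA, in 8.30% of windows) and the T-box half-site (GGTGTGA, in 3.98%) matched in no window of the members. Such a match describes letters and is no evidence of binding. Ifi204 had no entry in the promoter table.

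Levels per length differed widely among the members. In young FO B cells the order of mean FPKM was Pyhin1, Mndal, Ifi203, Pydc3, Pydc4, Aim2 and Ifi204. Neighbours in this order whose ranges over the 3 libraries overlapped were Ifi203 and Pydc3, and Pydc4 and Aim2. Among genes of at least 1 FPKM in the same library, Pyhin1 exceeded 94.8% to 95.6% in FO B cells and 90.5% to 92.6% in ABCs. The 7 members summed to 566 to 596 FPKM in young FO B cells, 515 to 612 in aged FO B cells and 290 to 360 in ABCs, so that the sums of ABCs did not overlap those of either FO group. How many of all genes separate the groups without overlap was not counted. Non-overlap of groups is therefore only a description, for these sums and for each gene below.

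**Figure D1:**
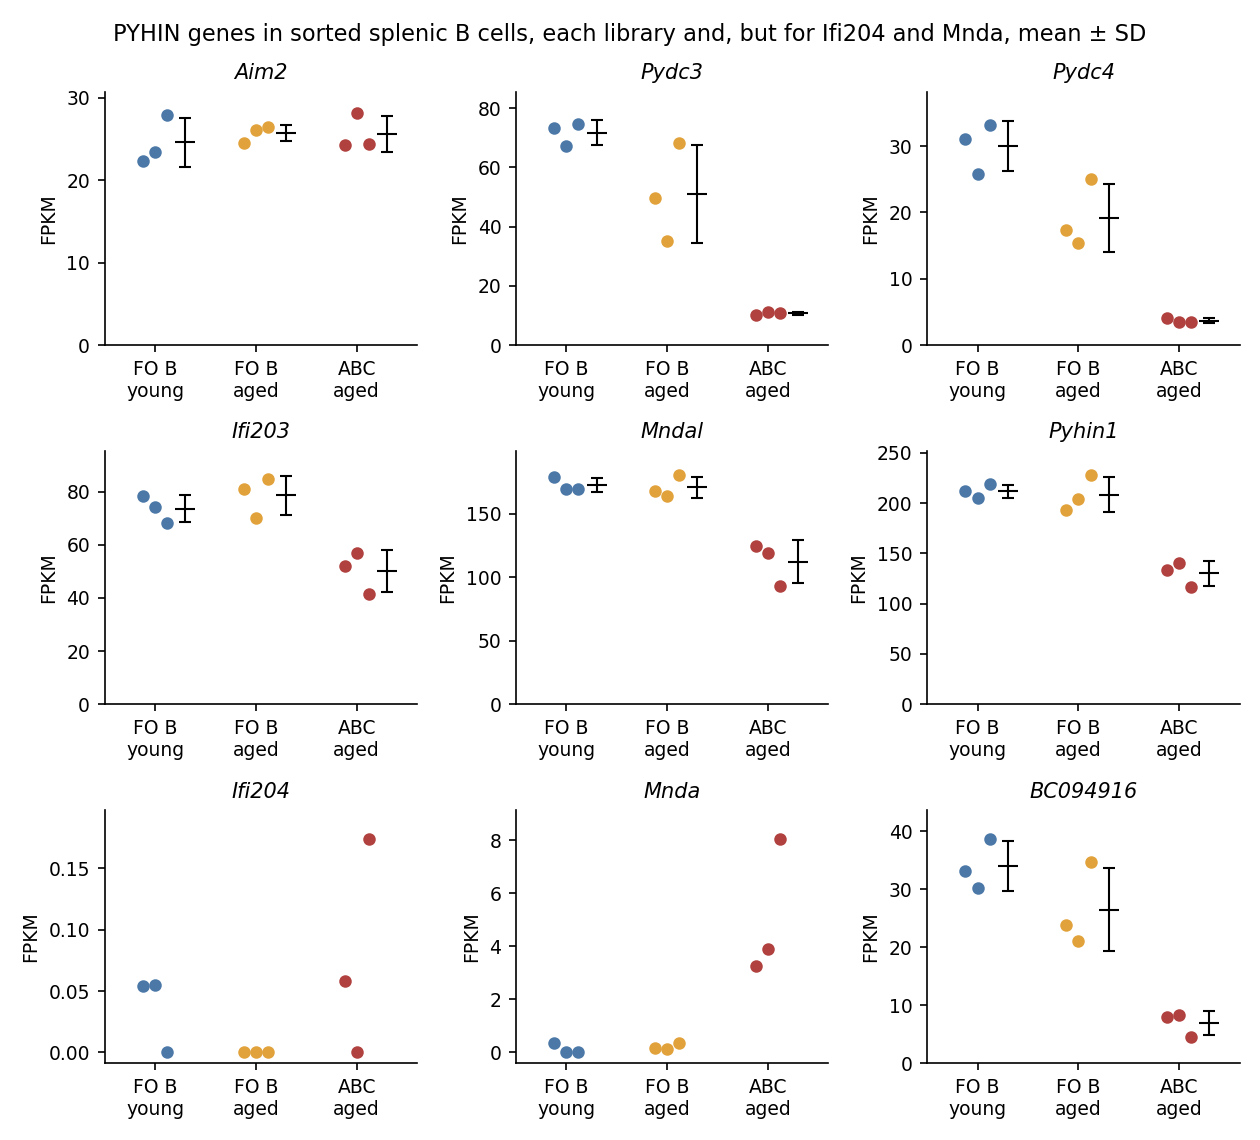
FPKM of the 7 members and of the family genes Mnda and BC094916 in young FO B cells, aged FO B cells and ABCs. Each point is a library, and bars beside the points give the mean ± SD over 3 libraries, left out for Ifi204 and Mnda, whose values include 0. Aim2 is level across groups, Pydc3, Pydc4 and BC094916 are far lower in all ABC libraries, and Mnda is higher in them.

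Aim2, the cytosolic DNA sensor of the inflammasome, did not separate the groups. Its FPKM in the 3 libraries was 22.4, 23.5 and 27.9 in young FO B cells, 24.6, 26.1 and 26.5 in aged FO B cells and 24.2, 28.1 and 24.4 in ABCs. All 3 groups overlapped. On the log2(FPKM + 1) scale, used for every difference below, ABCs minus aged FO B cells was -0.01 (SE 0.09), ABCs minus young FO B cells was 0.06 (SE 0.11), and aged minus young FO B cells was 0.07 (SE 0.09). No stretch of read length in its annotated protein-coding transcripts occurs in the sense sequence of a transcript of another gene. Reads in sense could thus be placed without a family copy. Antisense matches were not searched, here or for the shares of stretches given below.

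Pydc3 and Pydc4, interferon-inducible family genes named for the pyrin domain, had the lowest levels in ABCs relative to FO B cells among the members above 1 FPKM. Pydc3 was at 73.4, 67.1 and 74.7 FPKM in young FO B cells, 49.7, 35.2 and 68.2 in aged FO B cells and 10.3, 11.1 and 10.8 in ABCs. The highest ABC library was below the lowest aged FO library, and the mean of ABCs was 4.76-fold lower than that of aged and 6.70-fold lower than that of young FO B cells. The log2 difference was -2.10 (SE 0.21) against aged and -2.63 (SE 0.07) against young FO B cells.

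Pydc4 was at 31.1, 25.8 and 33.2 FPKM in young FO B cells, 17.3, 15.3 and 25.02 in aged FO B cells and 4.12, 3.42 and 3.55 in ABCs. Again no ABC library reached any FO library. The mean of ABCs was 5.199-fold below that of aged and 8.11-fold below that of young FO B cells, with log2 differences of -2.08 (SE 0.18) and -2.72 (SE 0.12). Of the stretches of read length in the annotated transcripts, 3.22% of those of Pydc4 also occur in Pydc3 and 3.11% of those of Pydc3 in Pydc4, so most reads of these genes could be told apart. Shares with any other gene were 8.03% for Pydc3 (5.57% with Ifi206) and 4.53% for Pydc4 (1.69% with Ifi206).

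Ifi203, Mndal and Pyhin1, the abundant members, were lower in ABCs by a smaller factor. Ifi203, a nuclear HIN-domain protein, was at 78.2, 74.2 and 68.2 FPKM in young FO B cells, 80.8, 70.2 and 84.5 in aged FO B cells and 52.0, 56.97 and 41.4 in ABCs. Mndal was at 179, 169 and 169 FPKM in young FO B cells, 168, 164 and 180 in aged FO B cells and 124.5, 119 and 92.9 in ABCs. Pyhin1 was at 212, 206 and 219 FPKM in young FO B cells, 193, 204 and 228 in aged FO B cells and 133, 141 and 117 in ABCs. For all 3 genes, every ABC library lay below every FO library, and young and aged FO B cells overlapped. The share of all genes whose groups separate in this way was not counted, so such separation is description only, here and for other genes.

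Relative to aged FO B cells, ABCs were 1.57-fold lower for Ifi203, 1.52-fold for Mndal and 1.60-fold for Pyhin1. The log2 differences were -0.65 (SE 0.13), -0.61 (SE 0.12) and -0.67 (SE 0.09) in the same order. Relative to young FO B cells, which share the ABC libraries with the comparison above, they were -0.55 (SE 0.12), -0.63 (SE 0.11) and -0.70 (SE 0.08). Pyhin1 shares 17.7% of its stretches of read length with Ifi214, Mndal shares 10.02% of its own with other genes and Ifi203 3.85%, so part of their reads could be split between copies. Ifi214 and Ifi206 were not found in the files under these names. Whether BC094916, described below, is an older name of either could not be checked here.

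Ifi204, a nuclear family member well known from macrophages, was close to undetected. The low values gave whole reads, of which young FO libraries held 1, 1 and 0, aged FO libraries 0, 0 and 0, and ABC libraries 1, 0 and 3. A count of 0 over the 3 aged FO libraries allows up to 3 reads, or 0.0535 FPKM, counting error only. No difference between groups was detectable at this depth, and Ifi204 was the only member below the mean of 1 FPKM required by the fit.

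The fit across all genes, limma on log2(FPKM + 1) of the 6 libraries compared, thus held 6 of the 7 members, whose log2 differences and SE above are from it. No call is given for them, because they were chosen with these values known. Over all genes, at an FDR (Benjamini-Hochberg over all genes tested) under 0.05, 16.5% of 10412 were called lower and 19.4% higher in ABCs than in aged FO B cells. Against young FO B cells 19.1% of 10438 were called lower and 21.6% higher.

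Between young and aged FO B cells, Pydc3 and Pydc4 were the members with the largest differences. The mean of aged FO B cells was 64.1% of that of young FO B cells for Pydc4 and 71.1% for Pydc3. All 3 aged libraries lay below all young libraries for Pydc4, while aged replicate 3 overlapped the young libraries for Pydc3. The log2 differences were -0.64 (SE 0.17) for Pydc4 and -0.53 (SE 0.20) for Pydc3. For the other 4 members tested, the mean in aged FO B cells was 98.3% to 107% of that in young FO B cells.

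In the limma fit 35 genes (0.346% of 10122) were called higher and 12 (0.119%) lower in aged than in young FO B cells. For the members, leaving out a library moved the differences. Without aged replicate 3 they were -0.83 (SE 0.12) for Pydc4 and -0.76 (SE 0.14) for Pydc3. Without aged replicate 2 they were -0.50 (SE 0.16) and -0.29 (SE 0.13).

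A pair of further PYHIN genes passed the filter on low values. These genes and the pathway lists that follow lie outside the 7 members, but the lists were drawn up with earlier results of these data known. Their counts and FDRs therefore describe these libraries and are no independent evidence.
BC094916, listed here as an older name of a family gene and without an entry in the reference tables, followed Pydc3 and Pydc4. It was at 33.1, 30.2 and 38.7 FPKM in young FO B cells, 23.8, 21.0 and 34.6 in aged FO B cells and 7.89, 8.36 and 4.58 in ABCs. It was lower in ABCs than in aged FO B cells (log2 difference -1.80, SE 0.25, limma FDR 0.00166) and than in young FO B cells (log2 difference -2.17, SE 0.20, limma FDR 0.000265). The difference of aged and young FO B cells was -0.37 (SE 0.17, limma FDR 0.415), and these groups overlapped. How far its reads overlap with those of other copies could not be examined without an annotated sequence.

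Mnda, the mouse family gene whose human namesake marks myeloid cells, went the other way. It was at 3.24, 3.91 and 8.05 FPKM in ABCs, against 0.156, 0.128 and 0.357 in aged FO B cells and 0.358, 0 and 0 in young FO B cells. These values correspond to 203 reads over the ABC libraries, 9 over the aged and 5 over the young FO libraries. The ABC libraries held 42, 56 and 105 of these reads. Per depth, the pooled reads of ABCs were 23.8 times those of aged FO B cells, a ratio that describes these libraries only. The log2 difference of ABCs was 2.25 (SE 0.29) against aged and 2.37 (SE 0.30) against young FO B cells, and 3.999 and 4.85 with a pseudocount of 0.1. Mnda passed the filter only through the ABC libraries, so it had to differ and no test of it is given.

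Of the stretches of read length of Mnda, 56.7% occur in other genes, namely 37.2% in Ifi205, 19.5% in Ifi204 and 6.29% in Mndal. Ifi205 was listed at 0 in all ABC libraries, Ifi204 held at most 3 reads in one, and Mndal was lower in ABCs. The summed FPKM of 14 macrophage and monocyte markers was 101.4 to 123 in ABCs, 94.8 to 113 in aged and 100.96 to 123 in young FO B cells, most of it Spi1, which B cells also express. The defining marker Csf1r averaged 0.520 FPKM in ABCs, 0.384 in aged and 0.514 in young FO B cells. Of the 7 markers of this list tested against aged FO B cells, 3 (42.9%, beside 19.4% of all genes) were called higher in ABCs in the limma fit. None was called lower, beside 16.5% of all genes. Cd68 averaged 10.7 FPKM in ABCs and 4.17 in aged FO B cells (log2 difference 1.13, SE 0.27, limma FDR 0.0155), and Mpeg1 7.54 and 1.86 (log2 difference 1.52, SE 0.30, limma FDR 0.00721). The third, Vcam1, averaged 2.69 and 0.497 FPKM and passed the filter through the ABC libraries. The part of other cells in the level of Mnda was not tested.

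The remaining family genes were barely detected. AI607873 (Ifi207) held 11 reads over the young FO, 8 over the aged FO and 18 over the ABC libraries, Ifi202b held 3 reads, all in ABCs, and Ifi205 was above 0 in aged FO replicate 3 alone, at 0.0802 FPKM. The 5 genes of the files on either side of the interval, Ifi202b and Ifi205 among them, averaged at most 2.005 FPKM in any group, which was reached by the olfactory receptor gene Olfr433 in young FO B cells. Along the cluster the expressed Aim2, Pydc4, Pyhin1 and Pydc3 were thus followed by the nearly silent AI607873 and Ifi204, then by Mndal, Mnda and Ifi203, and then by the nearly silent Ifi202b and Ifi205.

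**Figure D2:**
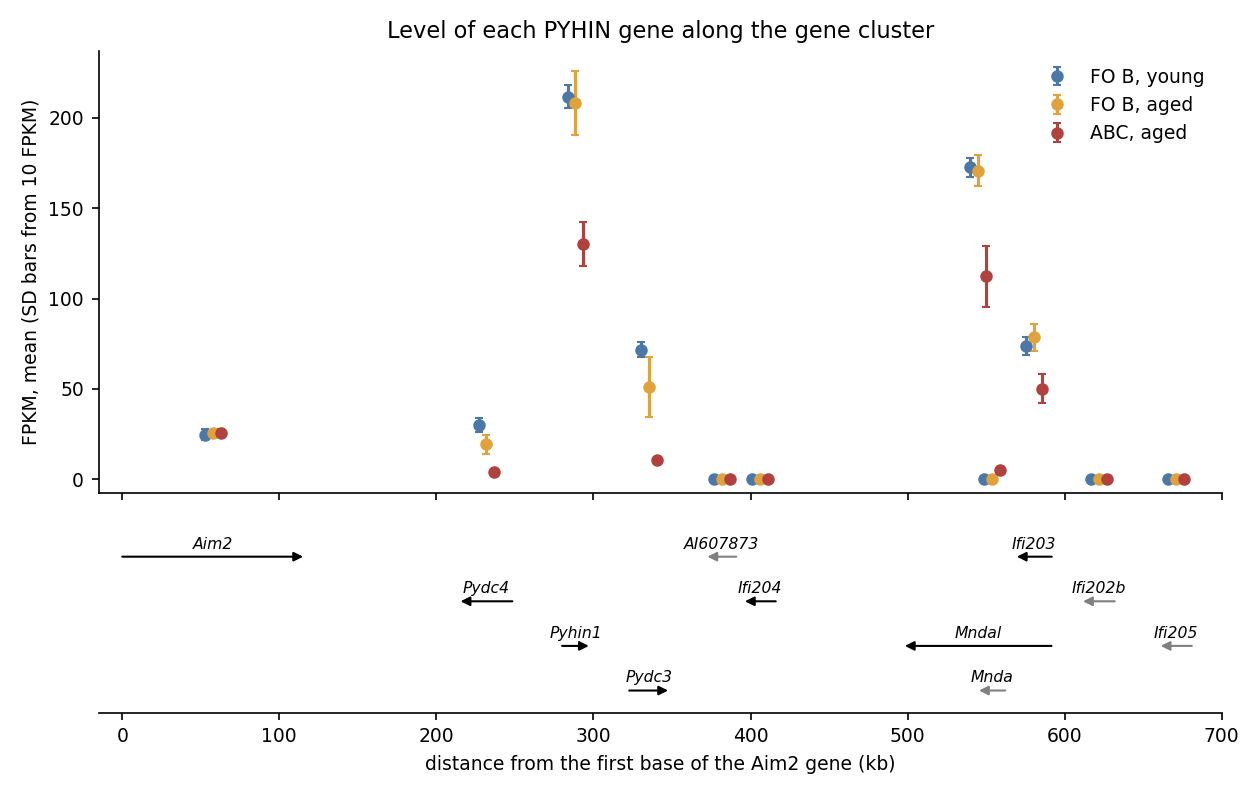
Mean FPKM in each group (upper panel) at the middle of each PYHIN gene along the cluster, with distance from the first base of Aim2 in kb on the x axis, and extent and direction of the genes (lower panel, members in black, other family genes in grey). Bars give the SD of 3 libraries for means of at least 10 FPKM. Pyhin1 and Mndal carry the highest levels, with AI607873 and Ifi204 near 0 between them.

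Members also differed in how they varied over the libraries. Over the 9 libraries Pearson's r of log2(FPKM + 1) between Pydc3 and Pydc4 was 0.99, and over the 6 FO libraries alone it was 0.95. Within FO B cells, BC094916 gave r of 0.94 with Pydc3 and 0.95 with Pydc4. Aim2 gave r between -0.13 and 0.03 with the other 5 members over 9 libraries. These values describe 3 groups of libraries, and differences between groups and shared depth enter them.

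The genes most like a member over the 9 libraries were taken from all genes averaging 1 FPKM or more. For Pydc4 they were Fancm (r = 0.999), a DNA repair helicase, and the interferon-stimulated genes Oasl2 (r = 0.995) and Rtp4 (r = 0.991). For Pydc3 they included Nktr (r = 0.994) and Mllt10 (r = 0.991). For Mndal they were Hopx (r = 0.995), Cd55 (r = 0.993) and Fam26f (r = 0.993), for Pyhin1 Mrpl23 (r = 0.996), Mast3 (r = 0.993) and Notch2 (r = 0.992), and for Ifi203 Dalrd3 (r = 0.991), Mrpl44 (r = 0.987) and Pitpna (r = 0.985). The best values for Aim2 were lower, at 0.91 for Rfng and Clasrp and 0.90 for Disp1. Over 9 libraries and 10375 genes such values are a description only.

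The level of interferon-stimulated genes outside the family was examined beside the members. The sum of 29 such genes was 1688 to 1751 FPKM in young FO B cells, 970, 865 and 1410 in aged FO replicates 1, 2 and 3, and 747 to 918 in ABCs. Pydc3, Pydc4 and BC094916 had the same order among the aged FO libraries, lowest in replicate 2 and highest in replicate 3. This order was not particular to them, since Ifi203 and Mndal had it as well. Pyhin1 and Aim2 were also highest in replicate 3 but lowest in replicate 1. In ABCs Pydc3, Pydc4 and BC094916 stood at 11.4% to 24.6% of the young mean, and the sum of the interferon-stimulated genes at 43.3% to 53.2%. Ifi27l2a alone made up 62.3% of that sum in young FO B cells, however, and single genes ranged widely. Over the 27 of at least 1 FPKM in young FO B cells, the ABC mean was 3.16% to 123% of the young mean, with a median of 45.3%. The ABC mean of Pydc4 was 12.3% and that of Pydc3 14.9% of the young mean. Below Pydc4 lay 6 of the 27, namely Oas3 (3.16%), Rtp4 (3.38%), Oas2 (6.75%), Mx2 (9.995%), Oasl2 (10.3%) and Oasl1 (10.6%), and Usp18 (14.4%) lay between Pydc4 and Pydc3. The part of interferon signalling in these levels was not tested.

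**Figure D3:**
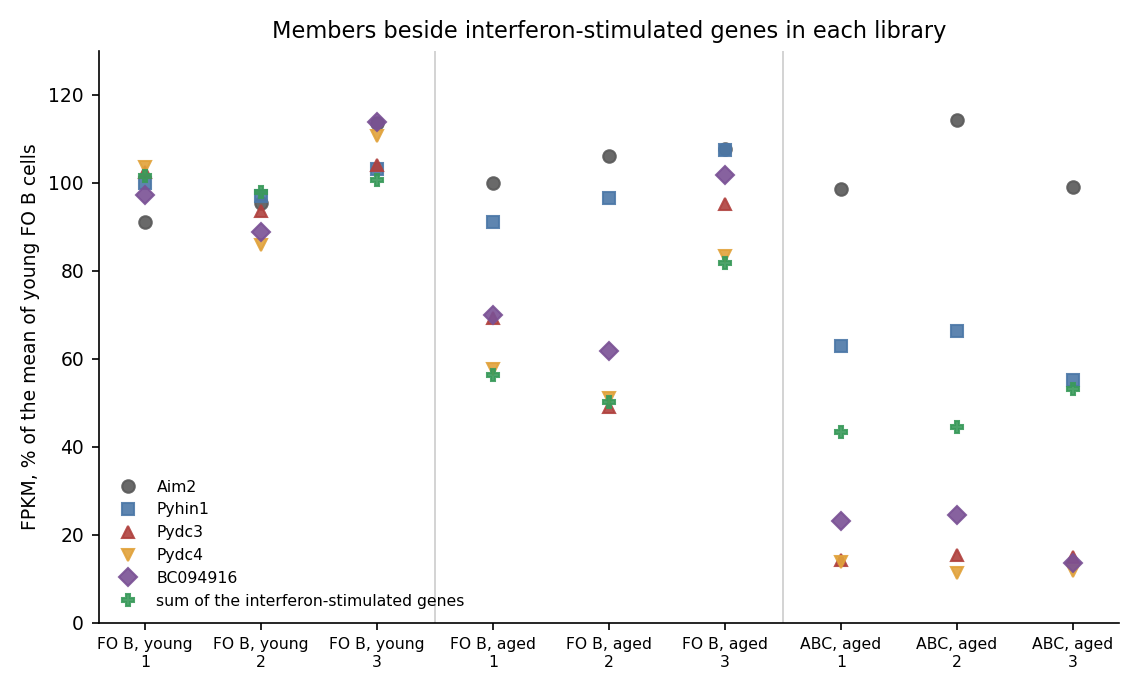
FPKM of Aim2, Pyhin1, Pydc3, Pydc4, BC094916 and the sum of 29 interferon-stimulated genes in each library (x axis), as a percentage of the mean of the 3 young FO libraries (y axis). For Pydc3, Pydc4, BC094916 and the sum, aged FO replicate 3 lies nearest to the young libraries, and Pydc3 and Pydc4 in ABCs lie at 11.4% to 15.5%.

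Against aged FO B cells, 12 of the 26 interferon-stimulated genes tested (46.2%, beside 16.5% of all genes) fell in ABCs and 1 rose (3.85%, beside 19.4%), with a median log2 difference of -0.48 beside -0.01 over all genes. Rtp4, a chaperone of receptors induced by interferon, was at 1.70, 1.86 and 0.711 FPKM in ABCs and 13.7, 15.6 and 32.0 in aged FO B cells (log2 difference -3.08, SE 0.34, limma FDR 0.000628). Oasl1 (-1.90, SE 0.28, FDR 0.00214) and Usp18 (-1.45, SE 0.30, FDR 0.00936) also fell in the limma fit. Of the 12, Oas2, Oas3 and Oasl2 averaged under 1 FPKM in ABCs and passed the filter through the FO libraries, so their log2 differences of -1.35, -1.41 and -1.74 are given without a test. That of Oas3 was -3.44 with a pseudocount of 0.1. The gene that rose was Mx1, an antiviral GTPase, at 4.19, 3.86 and 5.35 FPKM in ABCs and 1.35, 1.59 and 1.91 in aged FO B cells (log2 difference 1.06, SE 0.16, limma FDR 0.00256).

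Against young FO B cells, 20 of 28 interferon-stimulated genes (71.4%, beside 19.1% of all genes) fell in ABCs and none rose in the limma fit, nor did any at an unadjusted p under 0.05, with a median of -1.05 beside -0.01 over all genes. The decreases were led by Rtp4 (log2 difference -4.19, SE 0.20, limma FDR 1.54e-05), Oasl1 (-2.74, SE 0.13, FDR 1.41e-05) and Usp18 (-2.52, SE 0.21, FDR 0.000157). Of the 20, Mx2, Oas2, Oas3, Oasl2 and Rsad2 passed the filter through the FO libraries in the same way, among them Oasl2 with a log2 difference of -2.39 (SE 0.16) and Oas2 with -2.28 (SE 0.21), which was -3.89 with a pseudocount of 0.1. Between aged and young FO B cells, 26 of 27 log2 differences were negative, with a median of -0.76 beside 0.00 over all genes. Of the 27, 21 were lower at an unadjusted p under 0.05 in the limma fit. Over all genes 1298 of 10122 were under that cut in either direction. Only Mx1 was called (log2 difference -1.27, SE 0.14, limma FDR 0.00872). Without aged replicate 3, 11 of 27 were called lower, beside 27 of 10132 over all genes, and without young replicate 1 or 2 the count was 0.

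Of the 4 interferon receptor genes, Ifnar1 (log2 difference -0.36, SE 0.08, limma FDR 0.00920) and Ifngr1 (-0.35, SE 0.10, FDR 0.0316) fell in ABCs against aged FO B cells, and so they did against young FO B cells (Ifnar1 -0.39, SE 0.08, FDR 0.00813, and Ifngr1 -0.32, SE 0.08, FDR 0.0207). These 2 of 4 (50.0%) stand beside 16.5% of all genes called lower against aged and 19.1% against young FO B cells. No receptor gene rose, and none did at an unadjusted p under 0.05 in these comparisons. The call of Ifngr1 was lost without aged replicate 1 or 2, and without young replicate 2 or 3, which left a count of 1. Between aged and young FO B cells no receptor gene was called, and 1 was higher at an unadjusted p under 0.05.

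Of the genes that act with or beside Aim2 in inflammasomes, 8 of 14 (57.1%, beside 19.4% of all genes) were higher in ABCs than in aged FO B cells, while the groups overlapped for Aim2 itself. Against aged FO B cells these 8 rose and none fell in the limma fit, with 1 lower at an unadjusted p under 0.05 and a median log2 difference of 0.38 beside -0.01 over all genes. Pycard, the adaptor ASC, was at 134, 114 and 154 FPKM in ABCs, 36.9, 33.9 and 30.7 in aged and 31.3, 32.6 and 33.5 in young FO B cells (log2 difference against aged 1.95, SE 0.12, limma FDR 6.33e-05). Naip5, a sensor of flagellin, was at 14.6, 13.6 and 19.5 FPKM in ABCs and 2.66, 2.38 and 3.07 in aged FO B cells (log2 difference 2.18, SE 0.16, limma FDR 0.000118). Every ABC library was above every FO library for both genes. Naip2 (1.67, SE 0.21, FDR 0.00121), Casp4 (0.77, SE 0.15, FDR 0.00647) and Nek7 (0.69, SE 0.12, FDR 0.00394) also rose in the limma fit. Naip2 and Naip5 are close copies, and their shared reads were not examined.

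Against young FO B cells 9 of 14 inflammasome genes (64.3%, beside 21.6% of all genes) rose and none fell, with 1 lower at an unadjusted p under 0.05 and a median of 0.46. They were led by Naip5 (log2 difference 2.52, SE 0.15, limma FDR 3.57e-05), Pycard (2.001, SE 0.11, FDR 2.38e-05), Naip2 (1.93, SE 0.25, FDR 0.00109), Casp4 (0.80, SE 0.19, FDR 0.0128) and Casp1 (0.80, SE 0.06, FDR 9.91e-05), which encodes caspase-1. Nlrp3, another sensor of the inflammasome, was listed at 0 in every library, and Il1b averaged at most 0.242 FPKM in any group. Between aged and young FO B cells none of the 14 was called, and 2 were higher at an unadjusted p under 0.05.

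Genes of the other route of cytosolic DNA sensing were called in both directions. Against aged FO B cells 7 of 21 (33.3%, beside 19.4% of all genes) rose and 5 (23.8%, beside 16.5%) fell, with a median log2 difference of 0.04. Trex1, a nuclease that removes cytosolic DNA, was at 251, 214 and 260 FPKM in ABCs and 82.6, 90.6 and 87.0 in aged FO B cells (log2 difference 1.46, SE 0.09, limma FDR 5.64e-05). Mb21d1, which encodes the sensor cGAS, was low, at 1.95, 1.45 and 2.05 FPKM in ABCs and 0.475, 0.755 and 0.579 in aged FO B cells. It is among the 7 DNA sensing genes counted as higher but passed the filter only through the ABC libraries, so its log2 difference of 0.81 (SE 0.17), or 1.45 with a pseudocount of 0.1, is given without a test. Dnase1l3 (1.16, SE 0.29, FDR 0.0203), Ikbke (0.75, SE 0.15, FDR 0.00856) and Rnaseh2b (0.64, SE 0.11, FDR 0.00478) rose as well.

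Tmem173, which encodes the adaptor STING, fell in ABCs against aged FO B cells (log2 difference -0.44, SE 0.11, limma FDR 0.0197), as did the dNTP hydrolase gene Samhd1 (-0.75, SE 0.13, FDR 0.00373), Rnaseh2c (-0.75, SE 0.09, FDR 0.000980), Xrcc5 (-0.49, SE 0.12, FDR 0.0166) and the kinase gene Tbk1 (-0.25, SE 0.07, FDR 0.0334). Without aged replicate 2 or 3 the count of this list was 7 in place of 12. The calls of Tmem173 and Xrcc5 were lost without either of these libraries, that of Dnase1l3 without aged replicate 1 or 3 or ABC replicate 1 or 2, and that of Tbk1 without any one of the 6 libraries.

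Against young FO B cells 5 of 21 rose and 5 fell (23.8% each, beside 21.6% and 19.1% of all genes), shares near those over all genes. The genes that rose were Trex1 (log2 difference 1.45, SE 0.13, limma FDR 0.000199), Dnase1l3 (1.07, SE 0.26, FDR 0.0159), Rnaseh2b (0.66, SE 0.18, FDR 0.0219), Ikbke (0.60, SE 0.18, FDR 0.0306) and, with the same limit of the filter, Mb21d1 (0.80, SE 0.18). Those that fell were Rnaseh2c (-0.73, SE 0.07, FDR 0.000331), Samhd1 (-0.70, SE 0.13, FDR 0.00486), Tmem173 (-0.49, SE 0.11, FDR 0.0113), Xrcc5 (-0.46, SE 0.11, FDR 0.0123) and Tbk1 (-0.26, SE 0.07, FDR 0.0282). The call of Ikbke was lost without young replicate 1 or 3 or ABC replicate 1 or 2, that of Tbk1 without young replicate 2 or 3 or ABC replicate 2 or 3, that of Dnase1l3 without young replicate 2 or ABC replicate 1, and that of Rnaseh2b without young replicate 3 or ABC replicate 1. Between aged and young FO B cells no gene of this list was called, and 1 was lower at an unadjusted p under 0.05.

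**Figure D4:**
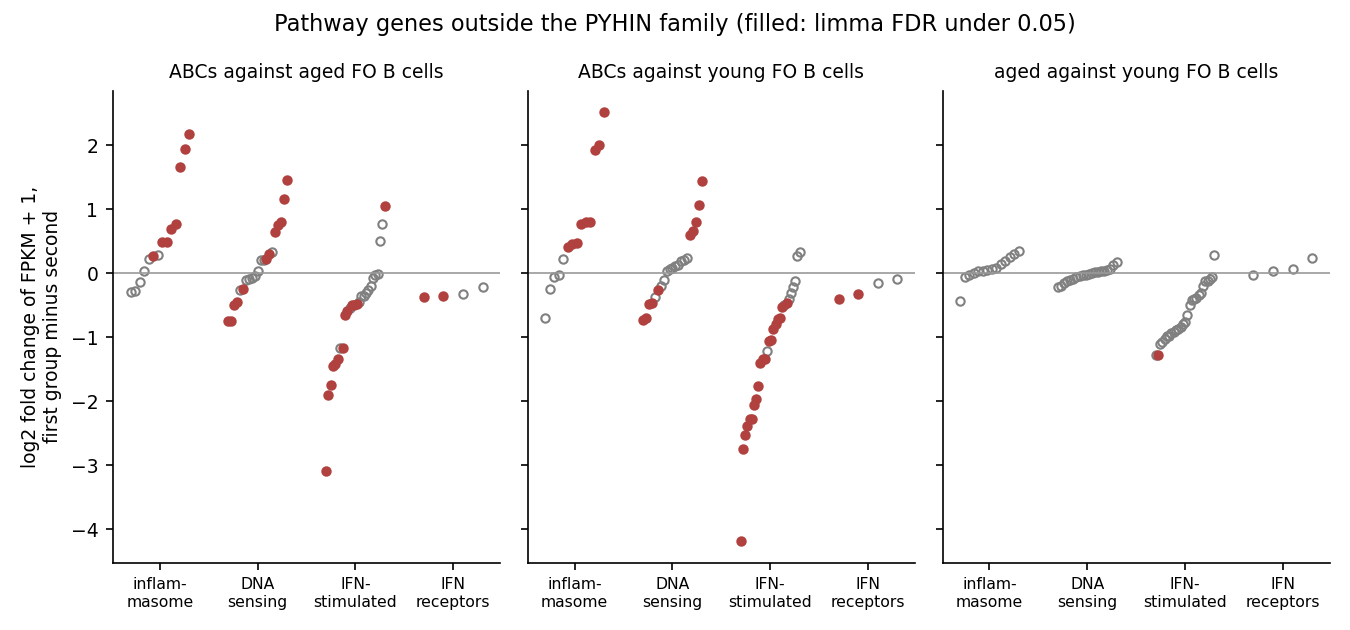
Log2 fold changes of FPKM + 1 (y axis) of inflammasome, cytosolic DNA sensing, interferon-stimulated and interferon receptor genes (x axis) in the 3 comparisons, each point a gene outside the PYHIN family. Filled points had a limma FDR under 0.05. Inflammasome genes lie mostly above 0 and interferon-stimulated genes mostly below 0 in ABCs.

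Summed markers of NK cells, T cells and plasma cells were higher in ABCs than in FO B cells, whereas those of dendritic cells and neutrophils were not. Single genes made up most of several of these sums. The summed FPKM of 8 NK cell markers was 26.3 to 38.2 in ABCs, 0.642 to 1.20 in aged and 1.19 to 1.99 in young FO B cells, of which Prf1 averaged 29.2 FPKM in ABCs, while Gzmb was listed at 0 in every library and Ncr1 averaged 0.0294 FPKM in ABCs. For 10 T cell markers the sums were 5.203 to 39.4 in ABCs, 1.44 to 2.98 in aged and 0.981 to 2.28 in young FO B cells, with Cd3g at 17.2 FPKM on average in ABCs and Cd3e at 0.0332. Apart from Cd3g, no T cell marker averaged above 0.520 FPKM in ABCs, the mean of Cd8b1. The summed FPKM of 8 plasma cell markers was 979 to 1284 in ABCs, 456 to 484 in aged and 454 to 466 in young FO B cells. Of the 7 tested, 4 (57.1%, beside 19.4% of all genes) were called higher in ABCs than in aged FO B cells in the limma fit. One direction down, 1 (14.3%, beside 16.5%) was called lower. The counts against young FO B cells were equal, beside 21.6% of all genes higher and 19.1% lower. Mzb1 averaged 944 FPKM in ABCs and 316 in aged FO B cells (log2 difference 1.56, SE 0.12, limma FDR 0.000180), Jchain 38.2 and 5.93 (2.34, SE 0.58, FDR 0.0188) and Sdc1 15.8 and 3.11 (1.82, SE 0.42, FDR 0.0142), whereas Slamf7 fell (-1.06, SE 0.31, FDR 0.0356). Prdm1, at 4.46 and 0.378 FPKM, passed the filter through the ABC libraries. The sums of 8 dendritic cell markers were 35.2 to 42.5 in ABCs, 33.6 to 55.2 in aged and 54.2 to 62.4 in young FO B cells, most of it Bst2, an interferon-stimulated gene as well. Batf3 averaged 4.96 FPKM in ABCs and 0 in aged FO B cells and Zbtb46 3.17 and 0.853, both passing the filter through the ABC libraries. They were the 2 of 4 dendritic cell markers tested (50.0%, beside 19.4% of all genes) that were counted as higher against aged FO B cells. The count of lower ones was 0, beside 16.5% of all genes. For 7 neutrophil markers the sums were 0.128 to 1.20 in ABCs, 1.09 to 24.01 in aged and 0 to 8.37 in young FO B cells. The highest sum was that of aged FO replicate 3, with S100a8 at 15.2 and S100a9 at 6.16 FPKM. The part of these genes' source cells in the levels of the PYHIN genes was not tested.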

How the data were processed

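RNA of sorted splenic B cells was made into full-length cDNA (SMART-Seq HT) and Nextera libraries and sequenced as single-end reads. The authors deposited 1 FPKM value per gene symbol and library, made from reads mapped to mm10. The submitters' processing notes name TopHat2 2.1.1, Bowtie2 2.2.8, SAMtools 0.1.18 and Cuffdiff 2.2.1, whereas the study's methods give other versions of these tools and Cufflinks. The gene annotation is not given in the sources used here. FPKM divides by transcript length and total reads, so it does not correct for a few dominant genes.

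Groups were read from the sample labels. The 7 members and all gene lists were chosen with earlier results of these data known. For each comparison, log2(FPKM + 1) of the 6 libraries entered a linear model of limma 3.58.1 (R 4.3.3), with a variance trend and no block, for genes averaging 1 FPKM or more, and genes were called at a Benjamini-Hochberg FDR under 0.05. The step was tested on simulated data. Per list, the 5 largest called differences in each direction are named, and per member the 3 genes of highest Pearson's r, except that a gene is not reported here for Pydc3. Relative depth and whole reads of low genes were recovered from the FPKM of 1 read, with a tolerance of 0.03 times the read count, which stopped growing at 5 reads. The alternatives were a pseudocount of 0.1, no filter, quantile normalization, TPM scaling, a filter at 5 FPKM, a replicate block, a fit of all 9 libraries together, and leaving out each library in turn. The paper gives 3 mice per group, but no label ties libraries to animals. The p-values therefore measure the spread between these samples, which may in part be technical. Python 3.11.15, numpy 2.4.6, pandas 2.3.3, scipy 1.17.1, Biopython 1.88 and matplotlib 3.10.9 served for the rest.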

Additional observations from a re-analysis of the deposited data

How the results depend on the processing

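Over the 13 alternatives the log2 difference of ABCs and aged FO B cells was -2.34 to -1.87 for Pydc3, -2.32 to -1.88 for Pydc4, -0.74 to -0.52 for Ifi203, -0.69 to -0.48 for Mndal, -0.74 to -0.599 for Pyhin1 and -0.08 to 0.03 for Aim2. BC094916 was called in all of them, with a limma FDR of 0.000211 to 0.00986. A mean of at least 5 FPKM removed Mnda, which left 1 further PYHIN gene called in either ABC comparison. With no filter, 1 interferon receptor gene was called against aged FO B cells. Leaving out a library gave 1 to 2 receptor genes in either ABC comparison and 7 to 10 DNA sensing genes against aged FO B cells. Between aged and young FO B cells, 47 genes were called, against 15 with no filter, 20 with all 9 libraries in the fit and 19 to 69 when a library was left out. Interferon-stimulated genes called there numbered 0 with no filter or with a mean of at least 5 FPKM, and 0 to 11 when a library was left out. With the replicate block they numbered 2, the block gave 37 genes over all, and against young FO B cells it ended the calls of Ikbke and Tbk1. With no filter the calls of Ikbke there and of Mx1 between FO B cells were also lost. Same-numbered libraries of these 2 groups, which differ in age, deviated from their group means with correlations of -0.05, 0.14 and -0.09. For ABCs and aged FO B cells, which share an age, these were 0.08, -0.02 and 0.11. Libraries of unlike number in these groups gave -0.11 to 0.06. Whether ABCs and aged FO B cells came from the same mice is not given, and the main fit used no pairing. Quantile normalization turned the calls against aged FO B cells from 2020 higher and 1719 lower to 1743 and 2145. With a pseudocount of 0.1 the differences against young FO B cells were -2.73 for Pydc3 and -2.98 for Pydc4, while those of low genes moved by over 1.5 times, as given for Mnda, Mb21d1, Oas2 and Oas3 in the results. The causes of these changes were not tested. With 3 libraries per group and 7490000 to 9100000 reads, genes of a few reads such as Ifi204 could not be compared.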
